A study of Mus musculus with 69 samples.

Results

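Polycomb repressive complex 2 (PRC2) is followed here through the transcripts of its 6 core subunit genes, Ezh2, Ezh1, Eed, Suz12, Rbbp4 and Rbbp7, across 41 RNA-seq libraries of the series. The genes were taken by name from the 3 deposited expression tables. They are 6 of the 15924 genes listed in any of these tables, each table holds all 6, and all 6 passed the filter on low values in every table. Levels are RPKM, reads scaled to library depth and to each gene's length, so levels of different genes can be set side by side per length.

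The cells were mouse embryonic stem (ES) cells of the CJ7 line, kept on fibroblast feeder cells, and embryoid bodies, the aggregates in which they differentiate, started from them in hanging drops. In the first experiment, mutant cells were compared with wild-type cells as ES cells (day 0) and as embryoid bodies at day 4 and day 8, with 3 libraries in each of 6 groups. The series names the mutated gene as EZH2. Neither the allele nor the number of clones is stated in the labels, and the columns of all mutant libraries carry 1 line name. In the second, wild-type cells took the EZH2 inhibitor GSK343 at 4 µM from 3 days before differentiation, or the vehicle DMSO, and were collected at the same 3 stages with 2 libraries in each of 6 groups. In the third, treated embryoid bodies were replated in ES cell medium for 5 days and collected at day 14, after GSK343 then GSK343 (2 libraries), GSK343 then DMSO, DMSO then GSK343 or DMSO then DMSO (3 libraries each). The first-named agent was given up to replating and the second after it. These 16 groups hold 42 labelled RNA-seq libraries, of which 41 are used, since GSK343 then GSK343 library 3 was not analysed here. The labels do not say that libraries of a group came from separate cultures, so p-values measure only the spread between these libraries.

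PRC2 places methyl groups on lysine 27 of histone H3, and the trimethylated form, H3K27me3, marks silent developmental genes. Ezh2 and its paralog Ezh1 carry the catalytic domain, which is active only when bound to Eed and Suz12. Eed reads the mark that is already in place, Suz12 holds the complex together, and Rbbp4 and Rbbp7 are paralogous histone-binding proteins that also serve in deacetylase, remodelling and chromatin assembly complexes. In mammals Ezh2 is the form typical of dividing and embryonic cells, while Ezh1 is found in dividing and resting cells alike. GSK343 competes with the methyl donor at the catalytic site, and so acts on the protein and not on the transcript. Rbbp4 and Rbbp7 are close in sequence and have processed copies elsewhere in the genome, and no label says how reads shared with such copies were counted, which leaves their levels less certain than the rest.

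Some libraries stood apart before any comparison. Depth, worked back from the values, was 7.17 to 28.47 M reads (M, mega) per library for mutant and wild type, 5.01 to 22 M for GSK343 and DMSO, and 2.27 to 8.34 M for replated cells, where the fewest reads behind a value were 10 for Ezh2, 28 for Ezh1 and 52 for Suz12. In library 2 of each of the 6 mutant and wild-type groups, 18.3% to 57.9% of reads fell on the ribosomal gene Rn45s, against at most 13.4% in their libraries 1 and 3. Wild-type day 8 library 3 kept ES cell markers at a summed 604 RPKM over 9 genes, against 61.6 and 60.3 in libraries 1 and 2. DMSO then DMSO library 1 held them at 534 RPKM, against 15.1 and 29.9 in libraries 2 and 3. Wild-type ES cell library 3 held 12 feeder fibroblast markers at a summed 1182 RPKM, against 235 and 262 in libraries 1 and 2. The cells labelled as ES cells carried the ES cell markers at 1078 to 2035 RPKM in sum, with none of the 9 at 0. RNA was taken from whole cultures, so fewer cells of a type and less RNA per cell cannot be told apart in any value given here.

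The stretches just before the transcript starts of Ezh2, Eed and Suz12, the members whose levels changed together in replated cells, and of Rbbp7, whose level changed at day 8, are shown so that the letters before genes that changed together can be compared. Each is 250 bases, 5′ to 3′ on the gene's strand, from RefSeq for GRCm38.p6: Ezh2 at chr6:47595031-47595280 (minus strand), Eed at chr7:89980977-89981226 (minus), Suz12 at chr11:79992856-79993105 (plus) and Rbbp7 at chrX:162760122-162760371 (plus). Capitals mark the words TTTCCCGC, TTTGGCGC, TTTCGCGC or TTTGCCGC, forms of the binding word of the cell cycle factors E2F, and CCAAT, the word bound by NF-Y, on either strand.
Ezh2: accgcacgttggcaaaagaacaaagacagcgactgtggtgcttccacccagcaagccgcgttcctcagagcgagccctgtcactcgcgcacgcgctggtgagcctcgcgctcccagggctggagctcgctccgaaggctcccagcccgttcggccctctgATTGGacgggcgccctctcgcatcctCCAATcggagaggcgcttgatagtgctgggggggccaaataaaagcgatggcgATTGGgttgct
Eed: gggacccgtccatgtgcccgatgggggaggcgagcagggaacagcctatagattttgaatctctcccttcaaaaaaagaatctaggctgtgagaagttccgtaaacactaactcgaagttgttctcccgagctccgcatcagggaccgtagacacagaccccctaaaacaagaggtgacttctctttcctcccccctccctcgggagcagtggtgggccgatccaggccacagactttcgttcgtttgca
Suz12: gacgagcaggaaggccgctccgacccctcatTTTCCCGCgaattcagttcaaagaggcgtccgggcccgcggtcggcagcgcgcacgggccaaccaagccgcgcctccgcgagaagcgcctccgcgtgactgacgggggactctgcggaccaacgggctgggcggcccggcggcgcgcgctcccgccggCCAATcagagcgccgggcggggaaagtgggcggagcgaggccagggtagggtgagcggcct
Rbbp7: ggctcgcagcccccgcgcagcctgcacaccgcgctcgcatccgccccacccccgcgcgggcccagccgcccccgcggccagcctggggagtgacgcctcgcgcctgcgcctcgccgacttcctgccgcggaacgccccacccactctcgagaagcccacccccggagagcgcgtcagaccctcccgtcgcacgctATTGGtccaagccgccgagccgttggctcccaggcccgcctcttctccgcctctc

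An E2F word was found before 1 of the 6 genes, Suz12, at -219 to -212 counted from the start, and in 2.16% of the same windows of 27025 genes. CCAAT was found before 4 of the 6, Ezh2 with 3 matches and Suz12, Rbbp4 and Rbbp7 with 1 each, and in 37.5% of all windows. The Eed and Ezh1 windows held neither. The 3 genes whose levels changed together thus shared neither set of words, and a match or its lack is a description of these letters only. The windows of Suz12 and Rbbp7 were 73.6% and 76.4% G or C, and those of Eed and Ezh1 54.4% and 55.2%. The gene spans in the same annotation are chr6:47530274-47595270 for Ezh2, chr11:101191115-101226463 for Ezh1, chr7:89954654-89980976 for Eed, chr11:79993106-80034123 for Suz12, chr4:129307100-129335370 for Rbbp4 and chrX:162760372-162779090 for Rbbp7. The Ezh2 span starts upstream of the transcript start used for the window, so that window lies largely within it.

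PRC2 at its own genes was looked for in the deposited peaks of CUT&RUN, a method that cuts DNA beside an antibody-bound protein. The transcript starts of 0 of the 6 members lay within 1 kb of a peak in any of the 13 peak sets, of which 4 were merged over the wild-type stages and 9 came from Suz12 libraries taken singly. Of all 27025 genes with a start, 19.6% lay within 1 kb of a merged H3K27me3 peak, 1.74% of a merged Suz12 peak, 1.33% of a merged Ezh2 peak and 2.85% of a merged Ring1B peak. In the single Suz12 libraries the share ran from 0.196% to 8.33%, the highest in wild-type day 8. At these shares a count of 0 of 6 does not set the members apart from other genes. Single sets also differed in kind. The 8493 peaks of wild-type ES cells reached the starts of 196 genes, and the 491 merged Suz12 peaks those of 471. The closest call was a Suz12 peak of mutant day 4 replicate 1, 1053 bases from the Suz12 start. The nearest merged H3K27me3 peak was 6719 bases from the Rbbp7 start, 14573 from Ezh1, 17861 from Suz12, 43844 from Rbbp4, 45699 from Ezh2 and 291673 from Eed. In the authors' deposited table of replated cells, all 6 genes carry NO in the PRC2 target column, where 4777 of 14833 genes (32.21%) carry YES. No label gives the rule behind that column.

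Per length, the subunits stood at unlike levels. In wild-type ES cells Rbbp7 at 130.2 ± 2.35 RPKM and Suz12 at 110.5 ± 27.3 RPKM (mean ± SD, n = 3) had the highest means, and differed by less than the SD of Suz12, which exceeded Rbbp7 in library 2. Eed at 79.03 ± 28.3 RPKM and Rbbp4 at 76.53 ± 8.31 RPKM lay within each other's spread, above the catalytic pair of Ezh2 at 49.08 ± 12.7 RPKM and Ezh1 at 20.40 ± 9.43 RPKM. Ordered by group mean among the 6 mutant and wild-type groups, neighbours lay further apart than the larger of their SDs in 1 place over all 6 genes: Ezh2 in mutant day 4 (24.57 ± 2.28 RPKM, the highest of the mutant) against wild-type day 8 (43.34 ± 2.22 RPKM, the lowest of wild type). Among the 6 GSK343 and DMSO groups the widest such gap was that of Rbbp7 between GSK343 day 8 (142.8 ± 9.54 RPKM) and DMSO day 8 (380.1 ± 32.6 RPKM, n = 2 each), the second and the first in its order.

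**Figure D1:**
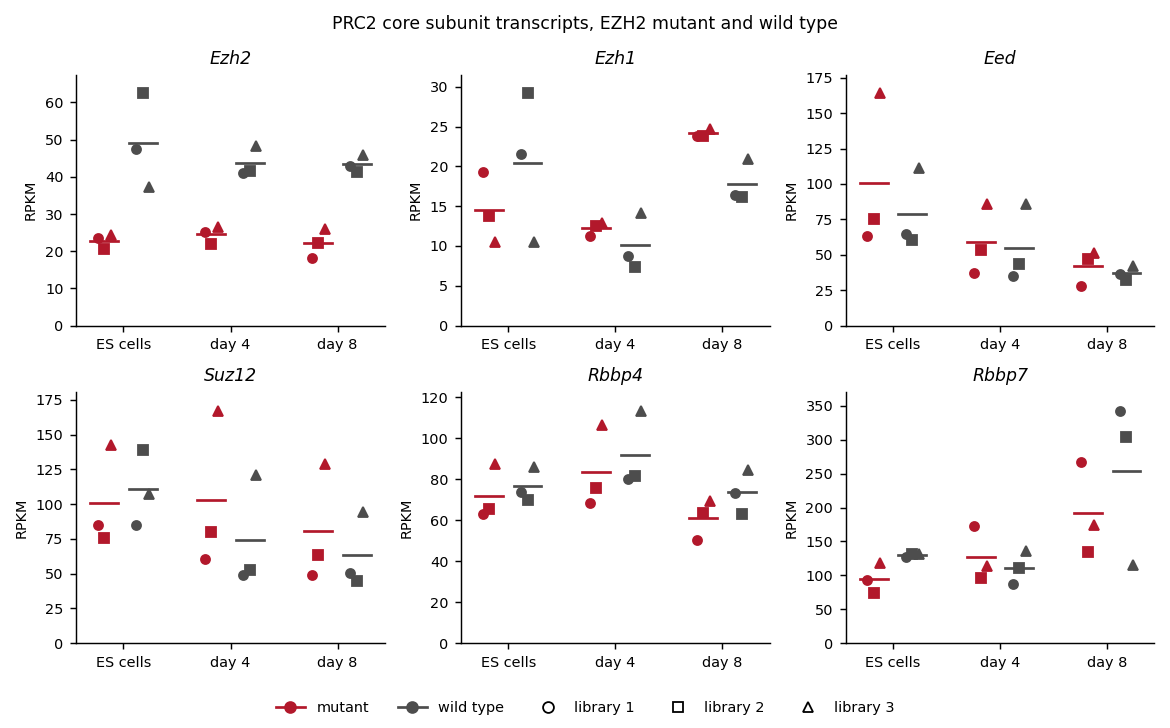
Levels (RPKM, vertical axes from 0) of the 6 transcripts in mutant (red) and wild-type (grey) ES cells and embryoid bodies; each symbol is 1 library and each line the group mean. Ezh2 in mutant libraries lies between 18.29 and 26.46 RPKM, below every wild-type library, while the groups of Suz12 and Eed overlap at every stage.

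In the mutant, the Ezh2 level was lower and no other core subunit passed the test. Ezh2 is the gene named as mutated, and its allele is not stated. Fewer transcripts and transcripts that lack part of the gene cannot be told apart in these values. Ezh2, the main catalytic subunit, had 23.55, 20.67 and 24.41 RPKM in mutant ES cells, against 47.58, 62.50 and 37.16 RPKM in wild-type ES cells (libraries 1 to 3). At day 4 it had 25.21, 22.04 and 26.46 RPKM in mutant and 40.98, 41.63 and 48.32 RPKM in wild-type embryoid bodies, and at day 8 it had 18.29, 22.19 and 25.96 RPKM in mutant and 42.84, 41.41 and 45.76 RPKM in wild type. All 9 mutant libraries lay below all 9 wild-type libraries, and within a stage such a gap between the groups held for 13% of all genes in ES cells, 9.24% at day 4 and 15.9% at day 8. The difference of log2(RPKM + 1), mutant minus wild type, was -1.04 ± 0.17 (SE) in ES cells, -0.80 ± 0.17 at day 4 and -0.95 ± 0.17 at day 8, with limma's Benjamini-Hochberg adjusted p of 0.0372, 0.168 and 0.0185. Averaged over the stages it was -0.93 ± 0.10 (adjusted p = 0.000228), 95% interval -1.15 to -0.72. With the library number as a block in limma, the day 4 difference was again not called (adjusted p = 0.126), where 0.183% of all genes were. Ezh2 was the single member called, where 0.0917% of all genes were called in ES cells, 0.0494% at day 4, 1.51% at day 8 and 3.86% in the average. The 9 ES cell markers summed to 1511 to 1649 RPKM in mutant and 1078 to 1422 RPKM in wild-type ES cells, to 854 to 1201 RPKM in mutant and 707 to 1068 RPKM in wild type at day 4, and to 349 to 1183 RPKM in mutant and 60.3 to 604 RPKM in wild type at day 8. None of the 9 was at 0 in any of these libraries, 0 of 9 were called within a stage and 1, Tbx3, was higher in the average (1.72, adjusted p = 0.00204). Their part in the mutant's differences was not tested.

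The mutant's Ezh2 difference did not change detectably with stage. The interaction was 0.24 (95% interval -0.29 to 0.76) for day 4 against ES cells, -0.15 (-0.67 to 0.38) for day 8 against day 4 and 0.09 (-0.44 to 0.62) for day 8 against ES cells, on the log2 scale, in contrasts that called 0%, 0% and 0.00705% of all genes with limma (276, 370 and 826 genes at an unadjusted p under 0.05, and 0 genes with voom in each). Within either genotype no stage difference of Ezh2 was called, with values from -0.15 to 0.10 in the mutant and from -0.15 to -0.01 in wild type. The calls in single stages were fragile. In ES cells the call was lost without any 1 of the libraries other than wild-type library 3, with adjusted p up to 0.206, and with voom on recovered reads (0.0577). At day 8 leaving out mutant library 2 (0.0624) or wild-type library 1 (0.102) or 2 (0.0746) ended it. The average kept its call in all 18 such fits, and lost it (-0.85, adjusted p = 0.147) once library 2 of every group, with its share of Rn45s, was left out, a choice made after seeing the data.

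Ezh1, the other catalytic subunit, did not pass the test at any stage in the mutant. At day 8 Ezh1 had 23.87, 23.81 and 24.71 RPKM in mutant and 16.35, 16.17 and 20.95 RPKM in wild-type embryoid bodies. These groups did not overlap, as for 15.9% of all genes, and the difference of 0.43 (95% interval -0.22 to 1.07) had an adjusted p of 0.594. In ES cells Ezh1 spread widely, with 19.35, 13.74 and 10.48 RPKM in mutant and 21.56, 29.19 and 10.44 RPKM in wild type, and library 3 was the lowest in each. Averaged over the stages the difference was 0.11 (-0.26 to 0.48).

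Set against each other within a library, where the scaling of a library cancels, the catalytic paralogs came closer in the mutant. Ezh1 stood at 1.31, 1.07 and 0.952 times Ezh2 per length in mutant day 8 embryoid bodies, against 0.382, 0.391 and 0.458 times in wild type. At day 4 the ratios were 0.445, 0.570 and 0.486 in the mutant and 0.215, 0.176 and 0.294 in wild type. In ES cells they were 0.822, 0.665 and 0.430 in the mutant and 0.453, 0.467 and 0.281 in wild type. The ranges were apart at day 4 and day 8 and overlapped in ES cells, where the lowest mutant library lay under 2 wild-type libraries. The ratio contains the Ezh2 value already given, with the limit of a mutated gene, and is no separate test.

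Eed and Suz12, the noncatalytic subunits that Ezh2 and Ezh1 need for activity, overlapped between genotypes at every stage. Suz12 had 84.71, 75.69 and 142.7 RPKM in mutant and 84.93, 139.2 and 107.5 RPKM in wild-type ES cells, and 60.56, 80.19 and 167.3 RPKM in mutant and 48.95, 52.45 and 120.8 RPKM in wild-type day 4 embryoid bodies. At day 8 Suz12 had 49.18, 63.38 and 129.0 RPKM in mutant and 50.40, 44.62 and 94.30 RPKM in wild type, and Eed had 27.79, 47.23 and 51.03 RPKM in mutant and 36.65, 32.39 and 42.23 RPKM in wild type. Library 3 was the highest of its group for Suz12 in 5 of 6 groups and for Eed in all 6. Averaged over stages, the difference was 0.20 (95% interval -0.35 to 0.76) for Suz12 and 0.18 (-0.32 to 0.68) for Eed. Relative to the mean of Eed and Suz12, Ezh2 stood at 0.475, 0.401 and 0.288 in mutant and 0.984, 1.075 and 0.670 in wild-type day 8 libraries.

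Rbbp4 and Rbbp7 were not called between genotypes. Rbbp7 had 92.62, 73.49 and 118.5 RPKM in mutant ES cells, against 127.6, 130.9 and 132.1 RPKM in wild-type ES cells. These groups did not overlap, as for 13% of all genes, and the difference of -0.48 had an interval of -1.25 to 0.29. At day 8 it had 267.4, 134.5 and 173.6 RPKM in mutant and 343.2, 304.6 and 115.7 RPKM in wild type, so that the lowest of all was wild-type library 3. Without that library the day 8 difference was -0.81 (adjusted p = 0.106), against -0.32 (0.774) with it. Rbbp4 ran from 50.57 to 106.4 RPKM in the 9 mutant libraries and from 63.01 to 113.6 RPKM in the 9 of wild type, and differed by -0.17 (-0.42 to 0.08) on average over the stages.

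**Figure D2:**
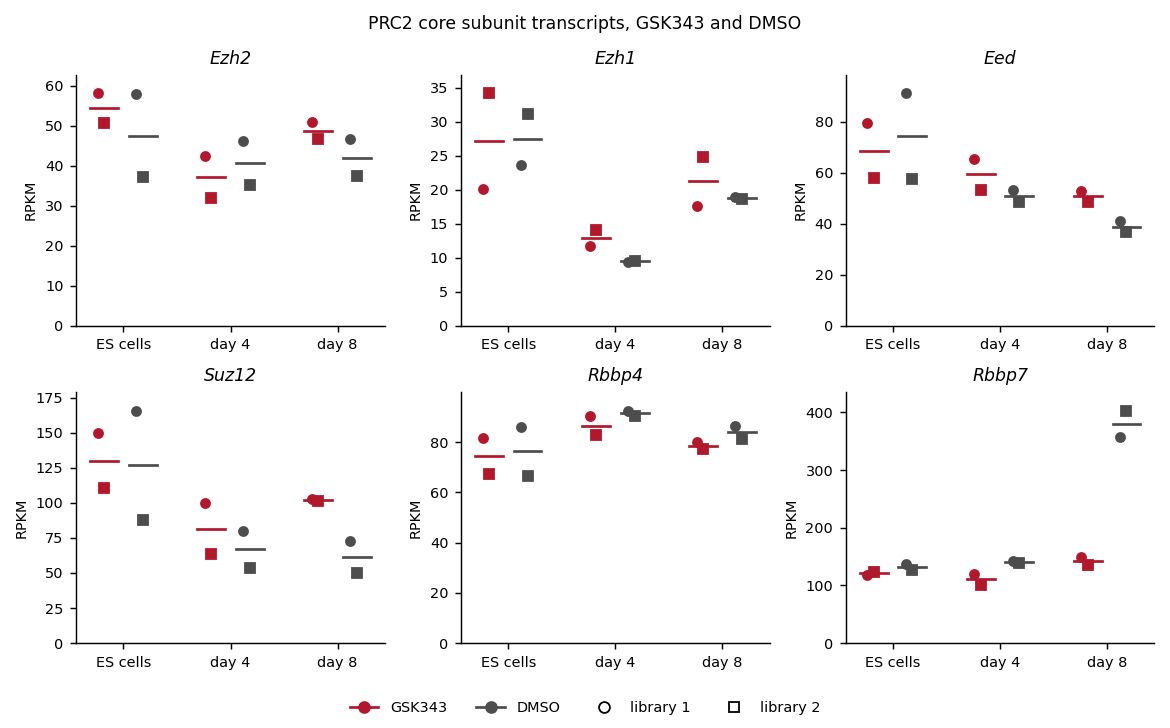
Levels (RPKM, vertical axes from 0) of the 6 transcripts under GSK343 (red) and DMSO (grey) in ES cells and embryoid bodies; each symbol is 1 library and each line the group mean. Rbbp7 at day 8 is at 149.5 and 136.0 RPKM under GSK343 and at 357.1 and 403.2 RPKM under DMSO, and the Ezh2 groups lie close together throughout.

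Under the inhibitor, Rbbp7 was the 1 member called without the library number as a block, and within a stage only at day 8. Rbbp7 had 149.5 and 136.0 RPKM under GSK343, against 357.1 and 403.2 RPKM under DMSO. Both GSK343 libraries lay far below both DMSO libraries. The difference was -1.41 ± 0.13 on the log2(RPKM + 1) scale (limma, Benjamini-Hochberg adjusted p = 3.95e-05), 95% interval -1.70 to -1.11. At day 4 Rbbp7 had 119.2 and 101.5 RPKM under GSK343 and 142.6 and 138.9 RPKM under DMSO (-0.35, adjusted p = 0.348), and in ES cells 118.7 and 123.0 RPKM under GSK343 and 137.8 and 126.8 RPKM under DMSO (-0.13, adjusted p = 1.0). The day 8 difference was larger than that at day 4 by -1.05 ± 0.19 (adjusted p = 0.00562) and than that in ES cells by -1.28 ± 0.19 (adjusted p = 0.00133). Averaged over the stages the difference was -0.63 ± 0.08 (adjusted p = 0.000548).

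The background at day 8 was high. Of all genes tested, 31.6% were called there, with 15.5% in the average, 0.628% at day 4 and 0% in ES cells with limma (669 genes at an unadjusted p under 0.05, 0 with voom), and 1 of the 6 members called at day 8 is below that share. The interactions called 12.2% of genes for day 8 against day 4 and 19.9% for day 8 against ES cells. GSK343 and DMSO groups did not overlap at day 8 for 5 of the 6 members, where this held for 64.8% of all genes. The Rbbp7 call at day 8 held in all 11 alternatives, with differences from -1.49 to -1.32.

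Other transcripts moved at day 8 beside Rbbp7. Over 7 blood and endothelium markers the summed level was 20.7 and 52.8 RPKM under GSK343 and 221 and 644 RPKM under DMSO, 6 of the 7 fell and the embryonic globin gene Hba-x was at 0 in GSK343 library 1. The 12 feeder and mesenchyme markers held 7 that fell, at 71.4 and 98.4 RPKM in sum under GSK343 and 257 and 339 RPKM under DMSO. Of the 9 ES cell markers 8 rose, and their sum was 1190 and 1484 RPKM under GSK343 and 146 and 118 RPKM under DMSO. Of 5 neural markers 3 rose and 0 fell, at 81.6 and 70.4 RPKM in sum under GSK343 and 17.54 and 17.95 RPKM under DMSO. Of 8 mesendoderm markers 3 fell and 0 rose (46.0 and 7.65 RPKM under GSK343, 123 and 70.3 RPKM under DMSO), and of 5 cardiac muscle markers tested 3 fell and 1 rose (3.496 and 4.102 RPKM in sum over 6 genes under GSK343, 16.5 and 10.5 RPKM under DMSO). None of these neural, mesendoderm and cardiac markers was at 0 in a day 8 library. The part of these in the Rbbp7 value was not tested.

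Ezh2, whose protein GSK343 inhibits, did not pass the test at any stage under the drug. It had 58.19 and 50.72 RPKM under GSK343 and 57.94 and 37.12 RPKM under DMSO in ES cells, 42.42 and 31.87 RPKM under GSK343 and 46.29 and 35.32 RPKM under DMSO at day 4, and 50.96 and 46.70 RPKM under GSK343 and 46.66 and 37.38 RPKM under DMSO at day 8. Library 1 was the higher of each group, and the groups overlapped in ES cells and at day 4. At day 8 the lower GSK343 library lay just above the higher DMSO library, and the difference was 0.22 (95% interval -0.29 to 0.73). Averaged over the stages it was 0.10 (-0.19 to 0.40).

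Suz12 at day 8 had 102.4 and 101.6 RPKM under GSK343, against 72.98 and 49.66 RPKM under DMSO, and Eed had 52.98 and 48.58 RPKM under GSK343, against 41.08 and 36.73 RPKM under DMSO. Both GSK343 libraries lay above both DMSO libraries for each gene. The differences were 0.75 ± 0.34 for Suz12 (limma, Benjamini-Hochberg adjusted p = 0.116) and 0.38 ± 0.22 for Eed (adjusted p = 0.223), so neither was called. With the library number as a block both passed (adjusted p = 0.00613 for Suz12 and 0.0481 for Eed), in a fit that called 42.8% of all genes. Suz12 averaged over the stages also passed with the block (0.37, adjusted p = 0.0233), where 24% of all genes were called. Ezh1 overlapped at day 8, with 17.62 and 24.88 RPKM under GSK343 and 18.89 and 18.61 RPKM under DMSO. Rbbp4 was the steadiest member, with 66.67 to 92.58 RPKM over the 12 libraries, and its highest was 1.39 times its lowest.

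**Figure D3:**
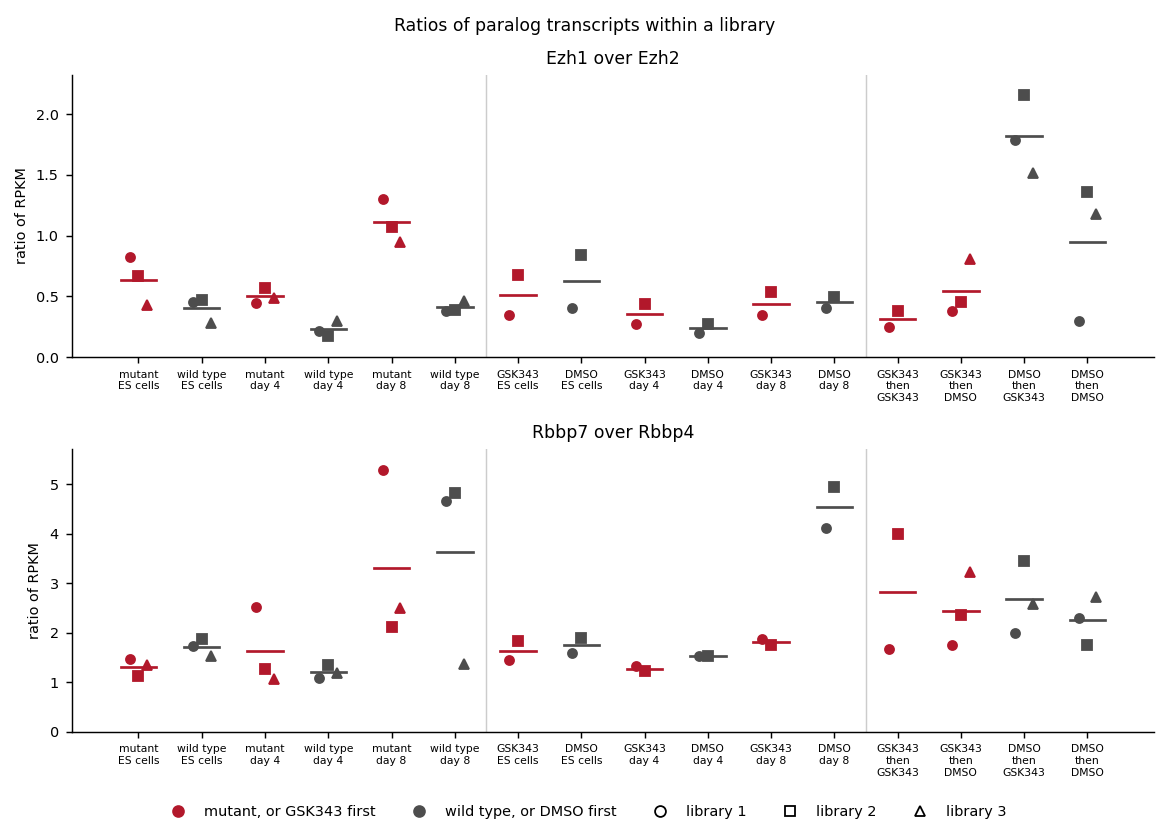
Ratio of Ezh1 to Ezh2 (top) and of Rbbp7 to Rbbp4 (bottom) in RPKM within each library, axes from 0; each symbol is 1 library, lines are group means, and vertical lines part the 3 tables. Mutant day 8 libraries hold Ezh1 over Ezh2 near 1, and Rbbp7 over Rbbp4 is above 4 in both DMSO day 8 libraries.

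Differentiation changed the subunits in different ways. Under GSK343 Rbbp7 was at 118.7 and 123.0 RPKM in ES cells, 119.2 and 101.5 RPKM at day 4 and 149.5 and 136.0 RPKM at day 8, and day 8 differed from day 4 by 0.37 (limma, Benjamini-Hochberg adjusted p = 0.182) and from ES cells by 0.24 (0.283) on the log2(RPKM + 1) scale. Under DMSO it was at 137.8 and 126.8 RPKM in ES cells, 142.6 and 138.9 RPKM at day 4 and 357.1 and 403.2 RPKM at day 8. The DMSO day 8 libraries lay above all others, and the level rose by 1.43 ± 0.13 relative to day 4 (adjusted p = 3.00e-05) and by 1.51 ± 0.13 relative to ES cells (adjusted p = 1.28e-05). The authors' deposited table gives 0.37 (FDR 0.728) for day 8 against day 4 under GSK343 and 1.43 (FDR 1.96e-05) under DMSO. Of all genes, 0.706% were called for day 8 against day 4 and 11.6% for day 8 against ES cells under GSK343, and 41.4% and 48.9% under DMSO. Within a library Rbbp7 was at 1.87 and 1.76 times Rbbp4 at day 8 under GSK343 and at 4.12 and 4.95 times under DMSO.

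The same gene was the 1 member called between stages in the genotype experiment. In the mutant Rbbp7 had 92.62, 73.49 and 118.5 RPKM in ES cells, 172.8, 95.87 and 114.5 RPKM at day 4 and 267.4, 134.5 and 173.6 RPKM at day 8. Mutant day 8 differed from day 4 by 0.57 (limma, Benjamini-Hochberg adjusted p = 0.336) and from ES cells by 0.98 (0.0728), with the 3 day 8 libraries above all 3 ES cell libraries, where 38.8% of all genes did not overlap. Wild-type levels were 127.6, 130.9 and 132.1 RPKM in ES cells, 87.25, 110.7 and 135.8 RPKM at day 4 and 343.2, 304.6 and 115.7 RPKM at day 8. Libraries 1 and 2 were high at day 8 and library 3, with its ES cell markers, was not. Wild-type day 8 exceeded day 4 by 1.06 ± 0.36 (adjusted p = 0.0482), and without day 8 library 3 by 1.55 (0.00151). Day 8 against ES cells was not called (0.81, adjusted p = 0.0995, where 29.1% of all genes were called), nor in 5 of the 6 fits that left out 1 of its libraries, and without day 8 library 3 it passed (1.31, adjusted p = 0.00388). The call for day 8 against day 4 ended without any 1 of the 3 day 4 libraries or without day 8 library 1 or 2 (adjusted p 0.0571 to 0.230), and with voom (0.0620). With the library number as a block in limma it held (adjusted p = 0.0339), in a fit that called 34.6% of all genes there. Of all genes, 10.3% were called for day 8 against day 4 in the mutant and 20.7% in wild type, and 17.6% for day 8 against ES cells in the mutant. The authors' deposited table gives 0.59 (FDR 0.548) for day 8 against day 4 in the mutant and 1.19 (FDR 0.0527) in wild type.

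Rbbp7 and the blood and endothelium markers were high in the same day 8 libraries. The mean log2(RPKM + 1) of those 7 markers was 3.81, 1.51 and 1.25 in mutant libraries 1 to 3 and 4.33, 4.59 and 0.88 in wild type, and it was 0.97 and 1.03 under GSK343 and 3.70 and 4.47 under DMSO. The 5 day 8 libraries with the most Rbbp7 (mutant 1, wild type 1 and 2, and both DMSO libraries) are the 5 with the highest marker mean. Other lists differed between these libraries too. ES cell markers summed to 1190 to 1484 RPKM under GSK343 and 118 to 146 RPKM under DMSO at day 8. In that sum the mutant had 349 to 1183 RPKM and wild type 60.3 to 604 RPKM, the highest in library 3. The part of any of these lists in the Rbbp7 level was not tested. Genes most like Rbbp7 over the 12 GSK343 and DMSO libraries and the 18 mutant and wild-type libraries were Gata6 (Pearson r 0.956 and 0.940), a transcription factor of endoderm and heart, Plxna2 (0.976 and 0.934), a semaphorin receptor, and Peg3 (0.968 and 0.918), an imprinted zinc finger gene. Over the 11 replated libraries the same genes had r of -0.481, -0.456 and -0.437. These r values describe libraries that share stages and depth.

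Ezh1 fell at day 4 under both treatments. Under GSK343 it had 20.18 and 34.24 RPKM in ES cells, 11.67 and 14.03 RPKM at day 4 and 17.62 and 24.88 RPKM at day 8. Day 4 lay apart from ES cells, as for 60.6% of all genes. There Ezh1 fell by 0.99 ± 0.24 relative to ES cells (limma, Benjamini-Hochberg adjusted p = 0.0182), a call lost without ES cell library 2 (0.145) or day 4 library 1 (0.107), and day 8 differed from day 4 by 0.67 (0.186). Under DMSO it had 23.66 and 31.21 RPKM in ES cells, 9.354 and 9.554 RPKM at day 4 and 18.89 and 18.61 RPKM at day 8, and the 3 stages did not overlap, as for 71.5% of all genes between day 4 and ES cells and 78.2% between day 8 and day 4. Ezh1 fell by 1.43 ± 0.24 at day 4 relative to ES cells (adjusted p = 0.00213), and at day 8 it rose by 0.92 ± 0.24 relative to day 4 (0.0129), a call lost without any 1 of the 4 libraries (0.0585 to 0.0616). The authors' deposited table gives -1.08 (FDR 0.00285) under GSK343 and -1.53 (FDR 1.44e-06) under DMSO for day 4 against ES cells. Among all genes, 22% were called in that step under GSK343 and 32.8% under DMSO.

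In the mutant Ezh1 had 19.35, 13.74 and 10.48 RPKM in ES cells, 11.22, 12.56 and 12.86 RPKM at day 4 and 23.87, 23.81 and 24.71 RPKM at day 8. Its day 8 libraries lay above all others, where 31.8% of all genes did not overlap between day 8 and day 4 and 38.8% between day 8 and ES cells. Day 4 differed from ES cells by -0.19 (limma, Benjamini-Hochberg adjusted p = 0.799) and day 8 from day 4 by 0.93 (0.0627). With the library number as a block, in the steps where same-numbered libraries deviate together, the day 8 step of the mutant passed (0.93, adjusted p = 0.0478), in a fit that called 22.8% of all genes there. In wild type Ezh1 had 21.56, 29.19 and 10.44 RPKM in ES cells, 8.803, 7.343 and 14.18 RPKM at day 4 and 16.35, 16.17 and 20.95 RPKM at day 8. Libraries 1 and 2 were low at day 4 and library 3 was not, and neither step was called (-0.88, adjusted p = 0.0851, and 0.80, adjusted p = 0.0719). Without wild-type ES cell library 3, the library rich in feeder markers, the day 4 difference passed (-1.28, adjusted p = 0.00630), and without day 4 library 3 both steps did (-1.13 with 0.0314 and 1.05 with 0.0403). Of all genes, 8.67% were called for day 4 against ES cells in wild type. Genes most like Ezh1 over 12 and 18 libraries were Fabp3, a fatty acid carrier of muscle (r 0.924 and 0.919), Got1l1 (0.953 and 0.898) and Cox18, which helps assemble cytochrome c oxidase (0.901 and 0.898). Over the 11 replated libraries their r was -0.302, 0.623 and -0.051. Stages and depth are shared among these points too.

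Eed and Suz12 were lower at day 8 than in ES cells under DMSO. Under GSK343 Eed had 79.39 and 57.90 RPKM in ES cells, 65.43 and 53.40 RPKM at day 4 and 52.98 and 48.58 RPKM at day 8, and Suz12 had 149.5 and 110.3 RPKM in ES cells, 99.87 and 63.25 RPKM at day 4 and 102.4 and 101.6 RPKM at day 8. Under DMSO Eed had 91.30 and 57.62 RPKM in ES cells, 53.16 and 48.61 RPKM at day 4 and 41.08 and 36.73 RPKM at day 8, and Suz12 had 165.8 and 87.70 RPKM in ES cells, 80.28 and 53.74 RPKM at day 4 and 72.98 and 49.66 RPKM at day 8. ES cell and day 8 libraries did not overlap under DMSO for either gene, as for 76.6% of all genes, and library 1 was the higher of each of these groups. Day 8 against ES cells was -0.41 (limma, Benjamini-Hochberg adjusted p = 0.261) for Eed and -0.33 (0.574) for Suz12 under GSK343. Under DMSO Eed fell by 0.88 ± 0.22 (adjusted p = 0.00761) and Suz12 by 0.99 ± 0.34 (adjusted p = 0.0324), in a step where 48.9% of all genes were called. The difference between treatments was not called (0.47 for Eed, interval -0.22 to 1.16, and 0.66 for Suz12, -0.39 to 1.72). Both DMSO calls were lost without ES cell library 1 (Eed adjusted p = 0.0606, Suz12 -0.54 with 0.239) or day 8 library 2 (0.0528 and 0.197).

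In the genotype experiment Eed had 62.99, 74.98 and 164.1 RPKM in mutant ES cells, 37.24, 53.72 and 85.88 RPKM at day 4 and 27.79, 47.23 and 51.03 RPKM at day 8. In wild type it had 65.00, 60.47 and 111.6 RPKM in ES cells, 34.74, 43.43 and 85.95 RPKM at day 4 and 36.65, 32.39 and 42.23 RPKM at day 8. Every day 8 library lay below every ES cell library of its genotype, as such a gap held for 38.8% of all genes in the mutant and 37% in wild type, and the differences of -1.16 in the mutant (limma, Benjamini-Hochberg adjusted p = 0.0607) and -1.02 in wild type (0.0696) missed the threshold. Without library 3 of every group, left out after seeing the data, both passed (-0.90 with 0.0333 in the mutant and -0.85 with 0.0190 in wild type), and so did Suz12 in wild type (-1.18 with 0.00284, against -0.85 with 0.168 in all libraries). With the library number as a block, Eed fell by 0.71 at day 4 relative to ES cells in the mutant (adjusted p = 0.0399), and Rbbp4 fell by 0.43 at day 8 relative to day 4 in the mutant (0.0145) and by 0.31 in wild type (0.0448), in fits that called 12.8%, 22.8% and 34.6% of all genes. Without the block none of these 3 was called, where 6.37% of all genes were called for day 4 against ES cells in the mutant.

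Eed and Suz12 moved together from library to library, with r 0.854 over 12 libraries and 0.783 over 18. Genes most like Suz12 were Wapl, a cohesin release factor (0.965 and 0.959), Bclaf3 (0.953 and 0.967) and Mtf2, a PRC2 accessory subunit (0.946 and 0.928). Those most like Eed were Foxn2 (0.953 and 0.953), the translation factor Eif1a (0.910 and 0.951) and D16Ertd472e (0.906 and 0.925). For Rbbp4 they were Shcbp1 (0.911 and 0.919), the centromere gene Cenpq (0.941 and 0.899) and Gmps, of guanine nucleotide synthesis (0.893 and 0.937). For Ezh2 the values were lower, with Nxf3 (0.669 and 0.824), the centromere motor Cenpe (0.633 and 0.637) and Xrn1, an RNA exonuclease (0.623 and 0.632). All of these were chosen from the 13792 genes tested in both tables, without Gm-numbered, Rik or histone-like symbols. With Suz12, Ezh2 had r of 0.851 over the 12 libraries but 0.069 over the 18, where Ezh2 is the mutated gene. With Eed its r was 0.566 and -0.039. Over the 11 replated libraries Ezh2 had r of 0.994 with Suz12 and 0.957 with Eed. Over the 11 replated libraries r was 0.812, 0.964 and 0.987 for the genes named for Suz12, 0.652, -0.073 and 0.427 for those of Eed, 0.773, 0.662 and 0.914 for those of Rbbp4 and -0.134, 0.965 and 0.113 for those of Ezh2. Points in all of these share stages, treatments or genotypes, and depth.

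**Figure D4:**
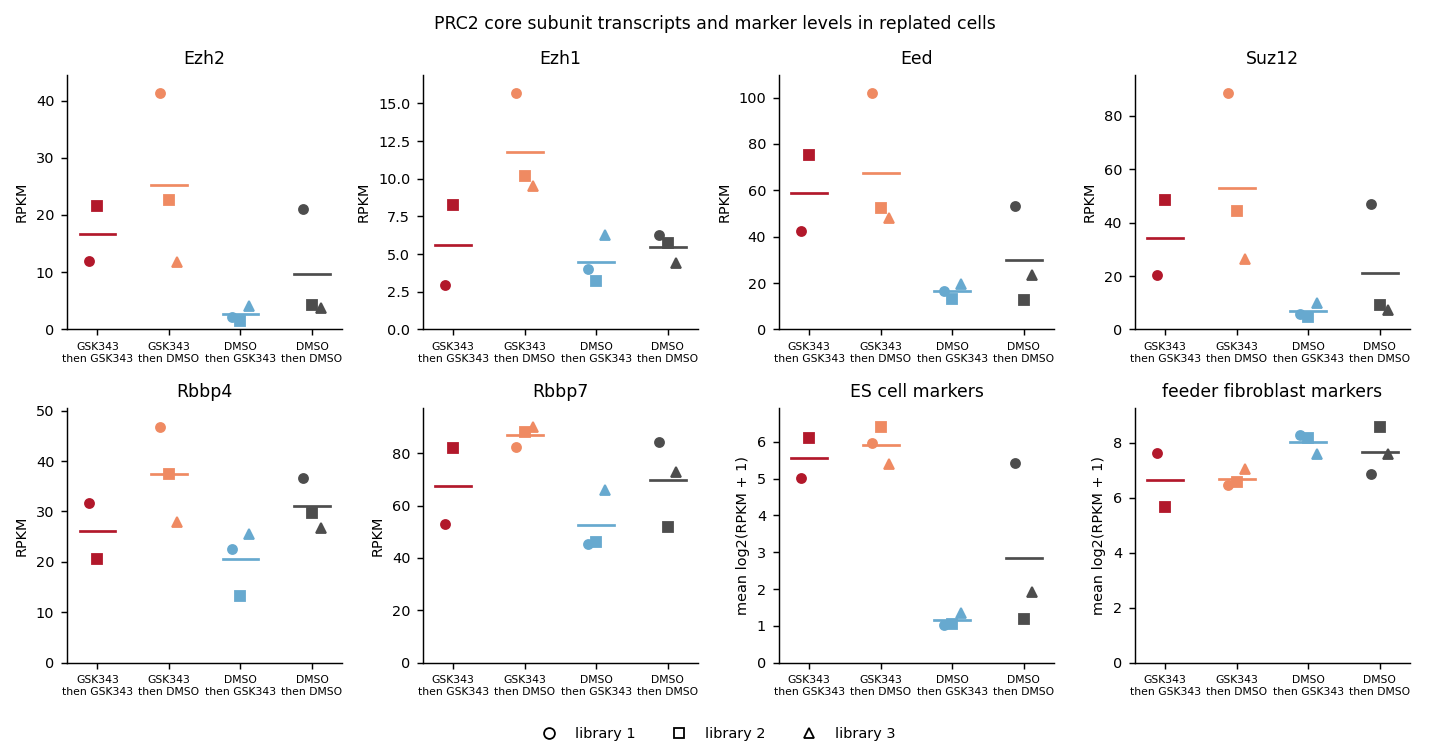
Levels (RPKM, axes from 0) of the 6 transcripts in replated cells, with the mean log2(RPKM + 1) of 9 ES cell markers and 12 feeder and mesenchyme markers (titled feeder fibroblast markers) in the last 2 panels; each symbol is 1 library and each line the group mean. Ezh2, Eed and Suz12 are high in the libraries where ES cell markers are high, among them DMSO then DMSO library 1.

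After replating, Ezh2, Eed and Suz12 were higher where differentiation had run under GSK343. Ezh2 had 11.92 and 21.57 RPKM in GSK343 then GSK343 and 41.24, 22.60 and 11.78 RPKM in GSK343 then DMSO, against 2.235, 1.487 and 4.127 RPKM in DMSO then GSK343 and 21.10, 4.225 and 3.717 RPKM in DMSO then DMSO. Suz12 had 20.29 and 48.54 RPKM in GSK343 then GSK343 and 88.41, 44.40 and 26.44 RPKM in GSK343 then DMSO, against 5.631, 4.715 and 9.983 RPKM in DMSO then GSK343 and 46.87, 8.992 and 7.300 RPKM in DMSO then DMSO. Eed had 42.43 and 75.30 RPKM in GSK343 then GSK343 and 101.8, 52.21 and 48.25 RPKM in GSK343 then DMSO, against 16.48, 13.09 and 19.47 RPKM in DMSO then GSK343 and 53.29, 12.57 and 23.39 RPKM in DMSO then DMSO. The early DMSO libraries were low for all 3 genes with 1 exception, DMSO then DMSO library 1, which reached into the range of the early GSK343 libraries.

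Early GSK343 against early DMSO, averaged over the late treatments, gave 1.91 ± 0.46 for Ezh2 (limma, Benjamini-Hochberg adjusted p = 0.0253), 1.86 ± 0.49 for Suz12 (0.0320) and 1.52 ± 0.37 for Eed (0.0272) on the log2(RPKM + 1) scale. These are 3 of 6 members, where 15.2% of all genes were called and 9.58% were called higher. Ezh1 differed by 0.57 (interval -0.10 to 1.24, and 0.88 with an adjusted p of 0.0463 without GSK343 then GSK343 library 1), Rbbp7 by 0.35 (-0.22 to 0.91) and Rbbp4 by 0.30 (-0.30 to 0.90), none called. Rbbp7 had 53.05 and 82.06 RPKM in GSK343 then GSK343, 82.37, 87.97 and 90.00 RPKM in GSK343 then DMSO, 45.18, 46.07 and 65.94 RPKM in DMSO then GSK343 and 84.14, 51.71 and 72.96 RPKM in DMSO then DMSO. Ezh1 had 2.938 and 8.222 RPKM in GSK343 then GSK343, 15.66, 10.18 and 9.530 RPKM in GSK343 then DMSO, 4.005, 3.205 and 6.253 RPKM in DMSO then GSK343 and 6.294, 5.728 and 4.383 RPKM in DMSO then DMSO. Its GSK343 then DMSO libraries were the 3 highest. That group did not overlap with DMSO then DMSO for 34.3% of all genes, and with GSK343 then GSK343 for 9.7%. Rbbp7 overlapped between early GSK343 and early DMSO. The spread was wide for Ezh2 and Suz12 and narrower for Rbbp7, whose highest library was 1.99 times its lowest, against 27.7 times for Ezh2 and 18.8 times for Suz12. Leaving out 1 library ended the Ezh2 call in 6 of 11 fits: GSK343 then GSK343 library 2 (adjusted p = 0.151), GSK343 then DMSO library 1 (0.0606) or 2 (0.0664), DMSO then GSK343 library 1 (0.0567), or DMSO then DMSO library 2 (0.0780) or 3 (0.0747). The same 6 ended the calls of Suz12 and Eed, as did DMSO then GSK343 library 3 (0.0524 and 0.0503). Without DMSO then DMSO library 1 the differences were 2.27 for Ezh2 (adjusted p = 0.00193), 2.26 for Suz12 (0.00234) and 1.79 for Eed (0.00400).

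**Figure D5:**
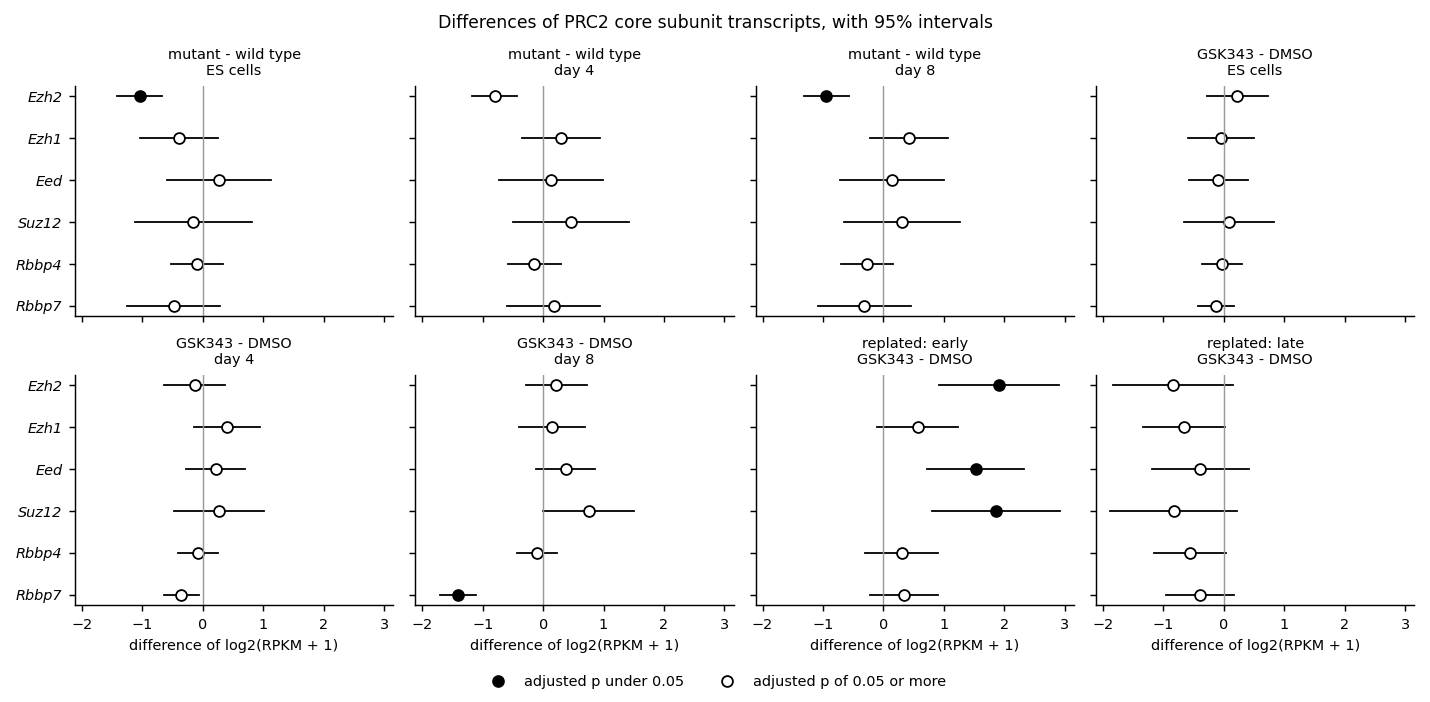
Differences of log2(RPKM + 1) for the 6 transcripts in 8 comparisons, with the group named first minus the group named second; points are estimates, lines 95% intervals and filled points passed the test at an adjusted p under 0.05. Ezh2 is filled in mutant ES cells and at day 8, Rbbp7 at day 8 under GSK343, and Ezh2, Eed and Suz12 for early GSK343 in replated cells.

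Single pairs of replated groups gave 0 calls among all 14367 genes (0%) with limma and 0 with voom, at 2633 genes with an unadjusted p under 0.05 in limma for GSK343 then GSK343 against DMSO then GSK343 and 3385 for GSK343 then DMSO against DMSO then DMSO. In the first pair Ezh2 differed by 2.31 (adjusted p = 0.142), Suz12 by 2.12 (0.174) and Eed by 1.75 (0.155). The groups of these 3 members did not overlap, which held for 32.1% of all genes. In the authors' deposited table the same pair gave 2.63 (FDR 0.00269) for Ezh2, 2.33 (FDR 0.00892) for Suz12 and 1.84 (FDR 0.0637) for Eed. In the second pair the differences were 1.52 for Ezh2 (0.177), 1.6 for Suz12 (0.178) and 1.30 for Eed (0.172), and without DMSO then DMSO library 1 they were 2.23 (0.0372), 2.40 (0.0284) and 1.83 (0.0512). The authors' deposited table gives 1.37 (FDR 0.109) for Ezh2 and 1.33 (FDR 0.118) for Suz12 there.

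Late GSK343, given after replating, changed 0 of the 14367 genes (0%) with limma, at 418 genes with an unadjusted p under 0.05, and 0 with voom. The late difference averaged over early treatments was -0.85 for Ezh2 (interval -1.84 to 0.14), -0.83 for Suz12 (-1.88 to 0.23), -0.66 for Ezh1 (-1.33 to 0.01), -0.56 for Rbbp4 (-1.16 to 0.04) and -0.39 for both Eed (-1.20 to 0.42) and Rbbp7 (-0.95 to 0.17). All 6 values are negative, and the median of all genes in this comparison was also below 0, at -0.15. The interaction of early and late GSK343 was not called for any member, nor for any gene (0% with limma, 187 at an unadjusted p under 0.05, 0 with voom). Intervals of this width do not show that late GSK343 left the transcripts alone.

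Marker transcripts of other cell types and of dividing cells differed between replated libraries. ES cell markers summed to 361 and 938 RPKM in GSK343 then GSK343, 593 to 1074 in GSK343 then DMSO, 12.5 to 19.5 in DMSO then GSK343 and 15.1 to 534 in DMSO then DMSO, where Dppa3 was at 0 in all 3 DMSO then GSK343 libraries. All 9 of them rose with early GSK343, with a median of 4.02 on the log2 scale against -0.05 over all genes. Of 25 cell division genes 22 rose and 0 fell, with a median of 2.36, and they summed to 407 and 976 RPKM in GSK343 then GSK343, 667 to 1094 in GSK343 then DMSO, 83.2 to 149 in DMSO then GSK343 and 136 to 734 in DMSO then DMSO. Top2a, which untangles chromosomes, rose by 3.40 and the licensing gene Mcm3 by 3.07. Of the 12 feeder and mesenchyme markers 2 fell and 0 rose, with a median of -1.18, where 5.58% of all genes were called lower, and none was at 0 in any replated library. The part of these in the levels of Ezh2, Eed and Suz12 was not tested. Within a library Ezh1 stood at 0.247 and 0.381 times Ezh2 in GSK343 then GSK343 and at 0.380, 0.450 and 0.809 times in GSK343 then DMSO, against 1.79, 2.16 and 1.52 times in DMSO then GSK343 and 0.298, 1.36 and 1.18 times in DMSO then DMSO.

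Some accessory subunits of PRC2 passed the test, in numbers that varied between comparisons. Of 10 such genes 5 were higher at day 8 under GSK343 and 1 lower, with a median of 0.62 against 0.00 over all genes, where 15.6% of all genes were called higher and 16% lower. Epop rose by 1.6 (limma, Benjamini-Hochberg adjusted p = 0.00706), Jarid2, which guides PRC2 to its sites, by 1.53 (0.00200), Mtf2 by 1.19 (0.00483), Phf19 by 1.16 (0.0248) and Ezhip, an inhibitor of the complex, by 0.86 (0.000917), while Phf1 fell by 0.82 (0.0291). Under DMSO from ES cells to day 8, 5 fell (Jarid2, Mtf2, Phf19, Epop and Ezhip, by 0.50 to 1.59) and 0 rose, with a median of -0.45 against 0.09, where 20.9% of all genes were called lower. In wild type 2 of 9 tested fell over those days, Epop by 2.05 (0.00129) and Jarid2 by 1.29 (0.00390), where 29.1% of all genes were called, 14.4% lower. In the mutant, Epop, which links PRC2 to elongin, was the 1 of 9 called, higher by 1.06 on average over stages (0.0113), where 2.67% of all genes were called higher. In replated cells 4 of 10 rose with early GSK343, Epop by 4.46 (0.0152), Jarid2 by 2.84 (0.0155), Mtf2 by 1.74 (0.0399) and Ezhip by 0.60 (0.0251), with a median of 0.50, where 9.58% of all genes were called higher.

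Both H3K27 demethylase genes rose from ES cells to day 8 under DMSO, Kdm6b by 1.37 (limma, Benjamini-Hochberg adjusted p = 0.00563) and Kdm6a by 0.63 (0.0169), where 28% of all genes were called higher. Neither was called between GSK343 and DMSO or between mutant and wild type. Among 17 partners of Rbbp4 and Rbbp7 in other complexes, 5 were higher and 2 lower at day 8 under GSK343, with a median of -0.08, where 15.6% of all genes were called higher and 16% lower. The remodeller Chd3 fell by 1.20 (0.00173) and Mbd2, which binds methylated DNA, by 0.86 (0.00326), beside Rbbp7, while the corepressor Sin3a rose by 0.67 (0.00432). With early GSK343 in replated cells 4 of the 17 rose and 0 fell, where 9.58% of all genes were called higher, with a median of 0.67, among them the chromatin assembly genes Chaf1b by 2.34 (0.0221) and Chaf1a by 2.31 (0.0179) and the deacetylase subunit Sap30 by 1.99 (0.0179).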

How the data were processed

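RNA-seq levels were read from 3 tables of RPKM that the authors deposited, 1 for each experiment, in which the values of replicate libraries stand apart. The authors' deposited tables also hold their log2 fold changes and FDR values for some comparisons, which are quoted only where named. The submitters' processing notes name the build mm10 and the tools HOMER 4.10.3, Bowtie2 2.3.4.3, STAR 2.5.3, featureCounts 1.6.1 and edgeR. No label states the annotation, the use of strand or the scaling. Peak coordinates were used as deposited by the authors. In the mutant and wild-type table the sums of RPKM times length differ between libraries (0.811 to 2.227, against 1 in the others), so the authors' values there carry a further scaling. No per-sample column was left aside (0).

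Differences were tested within a table, with all its groups in 1 fit, by limma 3.58.1 (R 4.3.3, trend) on log2(RPKM + 1) over genes with at least 0.5 RPKM in a number of libraries equal to the size of the smallest group (14180, 14016 and 14367 genes for mutant and wild type, for GSK343 and DMSO, and for replated cells). A fold change on this scale understates the change of low genes. Benjamini-Hochberg adjustment ran over all genes of a contrast, with a threshold of 0.05. All p-values in the report come from limma. The procedure was run on simulated counts with known, large changes in genes with many reads. That run does not cover smaller changes, genes with few reads or libraries that differ widely. Values divided by the step of 1 read were whole, within 0.02, for 100% of those tested, and limma's voom with trimmed mean of M-values factors was run on these reads. Alternatives were a pseudocount of 0.1, no filter, median centring, division by 1 minus the Rn45s share, voom, the library number as a block, only the groups of a contrast, and each library left out in turn.

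The library number entered no main fit, only the alternative with a block. It was read as a sign of pairing where every same-numbered pair of libraries deviated from its group means together with r over 0.1. This held for mutant and wild type at day 4 (r 0.29 to 0.81) and for ES cells and day 4 and for day 4 and day 8 within each genotype (0.15 to 0.74), and in no other comparison of 3 libraries. Between GSK343 and DMSO groups r ran from 0.18 to 0.67. Groups of 2 give the same r for both pairs, so the rule was not applied there. Named genes are the 6 members, the 3 genes most like each (the highest smaller value of the Pearson r over 12 and over 18 libraries) and called genes of the lists of accessory subunits, demethylases and Rbbp4 and Rbbp7 partners. Genes with Gm-numbered, Rik or histone-like symbols were left out before the ranking by r. Members and lists were chosen with earlier results of these data known. Ezhip stands in the tables under the older symbol AU022751. Promoter windows and gene spans come from RefSeq, GRCm38.p6.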

Additional observations from a re-analysis of the deposited data

Results flagged for a closer look

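The GSK343 effect on Rbbp7 differed between stages. The difference between GSK343 and DMSO was larger at day 8 than at day 4 by -1.05 ± 0.19 on the log2(RPKM + 1) scale (limma interaction, Benjamini-Hochberg adjusted p = 0.00562), and larger at day 8 than in ES cells by -1.28 ± 0.19 (adjusted p = 0.00133). Both GSK343 libraries lay below both DMSO libraries at day 8, day 4 and in ES cells. Groups did not overlap there for 64.8%, 43.6% and 32.1% of all genes. Both calls held in all 15 alternatives. Each interaction shares the day 8 libraries with the other.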

How the results depend on the processing

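Of 3030 alternative values for 198 member differences, 2932 kept their side of the threshold, 56 lost a call and 42 gained one. The sign changed in 165 of the 2932, in none of them called, and in 0 of those that lost or gained a call. For mutant against wild type 3 member calls became 1 after division by 1 minus the Rn45s share and 1 with only the groups of a contrast in the fit. For stages of wild type and mutant, 1 call became 0 with median centring, 0 after division by 1 minus the Rn45s share, 0 with voom and 2 with only the groups of a contrast. In the mutant and wild-type experiment the sums of RPKM times length were already highest in the libraries with the most Rn45s. They were 2.227 at 57.9% Rn45s in wild-type day 4 library 2 and 1.373 at 38% in mutant day 8 library 2. Division by 1 minus the Rn45s share thus raises values that the authors' scaling had already raised. The cause of these changes was not tested. Leaving out libraries gave 0 to 3 calls for mutant against wild type, 0 to 11 for its stages, 2 to 2 for GSK343, 4 to 9 for DMSO and GSK343 stages and 0 to 6 in replated cells, and 0 for the genotype and the replating interactions. These settings were chosen after seeing the data: equal totals without Rn45s, and all libraries numbered 2 or 3 left out.

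With the replicate block, calls were 8 for stages of wild type and mutant (1 without it), 5 for GSK343 against DMSO (2) and 13 for the stages of DMSO and GSK343 (7). At day 8 same-numbered GSK343 and DMSO libraries deviated together (r 0.42), a single value since groups of 2 give the same r for both pairs. There the block gave Suz12 0.75 (limma, Benjamini-Hochberg adjusted p = 0.00613) and Eed 0.38 (0.0481), in a fit that called 42.8% of all genes. Between day 8 and ES cells, where the number did not meet the rule for pairing, Eed had -1.16 (0.00181) in the mutant. In wild type Eed had -1.02 (0.00221) and Suz12 -0.85 (0.0140) in that step. Among further calls with the block were Ezh2 (-0.55, adjusted p = 0.00772) and Suz12 (-0.685, 0.0131) at day 4 against ES cells under GSK343. That fit called 35.2% of all genes there. The block changed no call between mutant and wild type.

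As ratios of RPKM + 1, Rbbp7 over Rbbp4 was 1.53 in DMSO day 4 (1.54 without the added 1), and Ezh2 over the mean of Eed and Suz12 was 0.697 in DMSO day 4 (0.692) and 0.282 in DMSO then GSK343 (0.217). Replated depth limits Ezh2 most, with 10 reads in its lowest library.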
